A study of Homo sapiens with 6 samples.

Results

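The BCL2 family of apoptosis regulators was followed in AGS cells with and without depletion of FTO. Members were chosen by gene symbol, as 3 anti-apoptotic genes (BCL2, BCL2L1 and MCL1) and 7 pro-apoptotic genes (BAX, BAK1, BBC3, PMAIP1, BID, BAD and BCL2L11), which makes 10 of the 58174 genes in the authors' table. AGS is an established line from a human gastric adenocarcinoma, and FTO is an RNA demethylase that removes the methyl group of N6-methyladenosine. The comparison asks how transcripts differ when FTO is depleted. Total RNA was sequenced from 3 libraries labelled si-NC, cells given a negative control oligonucleotide, and from 3 labelled si-FTO, cells given an siRNA against FTO. A genotype label names the si-NC libraries wild type and calls the si-FTO libraries FTO-/-, while the methods describe siRNA; both groups share the line, the organ label stomach and the library kit. Whether the 3 libraries of a group came from separate cultures is not given in the sources used here.

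The values are TPM, transcript levels corrected for length and scaled to a fixed total, and the table gives 1 authors' mean per group. No value per library was used, so no error, interval or test stands beside any value, and the depth is unknown. A log2 ratio is log2 of the si-FTO mean plus 1 over the si-NC mean plus 1, which understates differences of low genes; a fold is the plain ratio of the means. A gene counts as past the fold when its log2 ratio is at least 1 in size. "Higher" and "lower" therefore describe means and not tested differences. FTO itself had an authors' mean of 33.1 TPM in si-NC against 7.27 TPM in si-FTO, with a log2 ratio of -2.05. The si-FTO mean was 21.9% of the si-NC mean, in the direction of the labels.

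Proteins of the BCL2 family decide whether the outer membrane of mitochondria is opened during apoptosis. BAX and BAK1 form the pores that release cytochrome c, anti-apoptotic members hold them and their activators in a surface groove, and BH3-only members insert a short helix, the BH3 segment, into that groove or activate the effectors directly. Gastric cancer cells, like many tumor cells, are known to rely on anti-apoptotic members for survival.

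The label of the cells was compared with cell type markers first. Of 10 epithelial markers, 5 reached 1 TPM in si-NC and 6 did so in si-FTO; their summed level was 69.3 TPM in si-NC against 5355 TPM in si-FTO. KRT8, a keratin of simple epithelia and the most abundant of the list by the mean of both groups, stood at 10.8 TPM in si-NC against 3139 TPM in si-FTO, and KRT7, another such keratin, was listed at 0 in si-NC and at 253 TPM in si-FTO. KRT19 was also listed at 0 in si-NC and had 0.13 TPM in si-FTO. In the other direction, the cell adhesion gene CDH1 had 3.67 TPM in si-NC against 0.685 TPM in si-FTO, and EPCAM, chosen after its values were seen, had 1.22 and 0.113 TPM. The si-NC mean thus lacks or nearly lacks several defining epithelial transcripts, which goes against the label, and the epithelial list differs between the groups far past the fold. All 7 gastric secretory markers were below 1 TPM in both groups, the most abundant being MUC5AC at 0.334 TPM in si-FTO.

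Among markers of other cells, PTPRC was listed at 0 in both groups, and the leukocyte list summed to 4.78 TPM in si-NC against 7.44 TPM in si-FTO. CD68, its most abundant gene by the mean of both groups, had 1.49 and 6.42 TPM. The fibroblast list summed to 13.7 and 37.6 TPM, mostly COL1A1 at 10.3 TPM in si-NC against 36.4 TPM in si-FTO, while COL3A1 had 2.18 and 0.361 TPM and PDGFRA 1.03 TPM in si-NC and 0 in si-FTO. Of 4 endothelial markers 3 were matched, with a sum of 0.414 TPM in si-NC against 41.0 TPM in si-FTO. In si-FTO this was almost wholly CDH5, at 40.9 TPM, while in si-NC CDH5 had 0.0083 TPM and most of the sum was KDR, at 0.401 TPM, which was listed at 0 in si-FTO. In bulk RNA, fewer cells of a type and less RNA per cell cannot be told apart. These marker differences run with the groups, and their part in the values of the BCL2 family was not tested. Whether both groups hold the same cells was not tested either. In group means, a difference between the cells and a difference with FTO depletion cannot be told apart, and every ratio of si-FTO over si-NC given here has this limit.

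**Figure D1:**
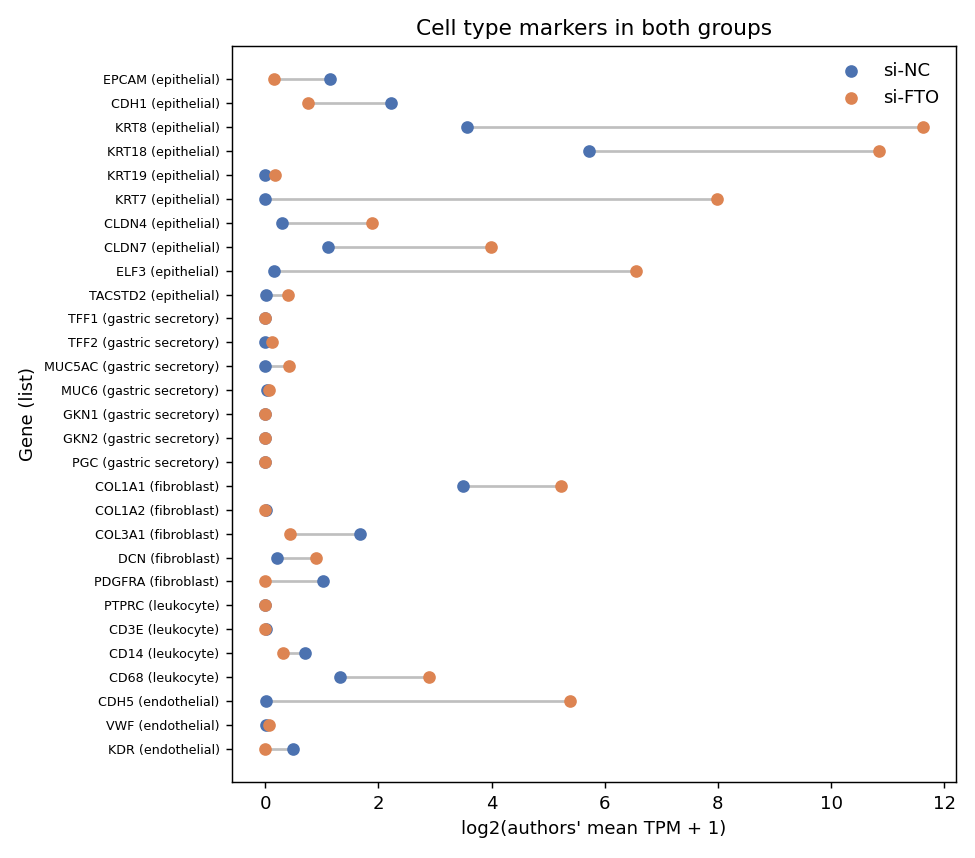
Cell type markers reported here in si-NC and si-FTO, as log2 of the authors' mean TPM plus 1; each point is 1 group mean. KRT8, KRT18, KRT7 and ELF3 lie further right in si-FTO than in si-NC, where KRT7 and ELF3 lie at or near 0, and the gastric secretory genes lie near 0 in both groups.

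The BH3 segment is a known trait of the family, and 5 members were taken as BH3-only. A count of members with it is therefore not independent of their choice. To show the segment, the coding sequence of 1 canonical transcript per gene was searched in frame. The search was for a leucine codon, 3 free codons, a glycine codon and a codon for an acidic residue. The motifs were CTNNNNNNNNNNGGNGAN, TTANNNNNNNNNGGNGAN and TTGNNNNNNNNNGGNGAN, on the coding strand, and at most 1 of them can match at a given codon. A first search with CTNNNNNNNNNNGGNGAN alone found 7 members, and the other 2 spellings were added after that result was seen. A match was present in 8 of 10 members, and in 5234 of 19229 coding sequences, or 27.2%. Among coding sequences within 10% of a member's length, the member itself counted, the share ran from 2% for the short PMAIP1 to 19.6% for MCL1. The 2% is of 50 sequences, where PMAIP1 itself is the only match. BBC3 and BAD had no match to these spellings, which does not mean that they lack a BH3 segment. MCL1 had 2 matches, of which the known BH3 segment is printed. The stretches below are read 5′ to 3′ from the GENCODE transcripts on GRCh37, the match is in capitals, and 9 bases stand on each side.
BCL2: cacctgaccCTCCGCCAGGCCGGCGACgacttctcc
BCL2L1: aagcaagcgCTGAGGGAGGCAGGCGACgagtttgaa
MCL1: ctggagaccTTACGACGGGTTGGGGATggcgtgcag
BAX: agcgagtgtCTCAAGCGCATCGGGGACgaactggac
BAK1: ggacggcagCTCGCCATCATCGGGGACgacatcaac
PMAIP1: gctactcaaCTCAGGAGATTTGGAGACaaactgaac
BID: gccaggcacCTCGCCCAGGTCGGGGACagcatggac
BCL2L11: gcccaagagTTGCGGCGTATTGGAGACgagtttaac

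All of these stretches are coding exon. On GRCh37 they lie at chr18:60985585-60985620 for BCL2, chr20:30309728-30309763 for BCL2L1 and chr1:150551344-150551379 for MCL1, all on the minus strand. The BAX stretch is at chr19:49459035-49459070 on the plus strand and that of BAK1 at chr6:33543167-33543202 on the minus strand. Those of PMAIP1 and BCL2L11 are at chr18:57569896-57569931 and chr2:111907671-111907706 on the plus strand, and that of BID is at chr22:18222184-18222219 on the minus strand.

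All 10 members had at least 0.5 TPM in at least 1 group, the minimum for comparison. Of them, 1 was higher past the fold in si-FTO (BCL2L1) and 2 were lower (BAX and PMAIP1). Among the 20493 genes compared, 11.4% were higher and 17.0% lower past the fold, so 1 and 2 of 10 are shares near those of all genes. Over all genes compared the log2 ratio had a median of -0.20, and over the members 0.18. By role, the median was 0.73 for the 3 anti-apoptotic members, all above 0, and -0.15 for the 7 pro-apoptotic members, of which 3 were above 0 and 4 below. With median-ratio scaling of the groups BAD moved from below to above 0, and no other member changed sign under the scalings run.

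**Figure D2:**
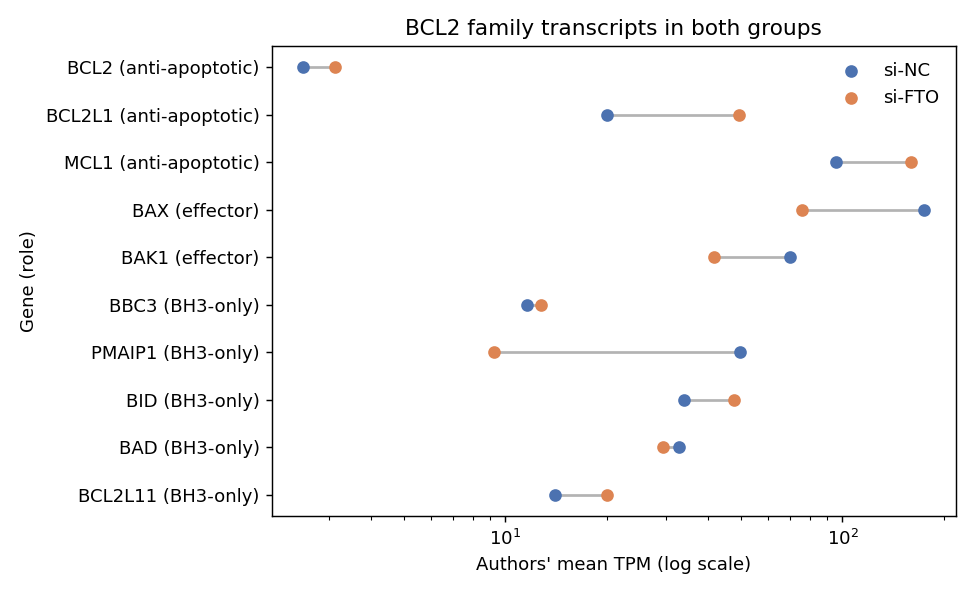
Authors' mean TPM of the 10 members on a log axis, with si-NC and si-FTO joined by a line. The anti-apoptotic genes lie to the right in si-FTO, while BAX, BAK1 and PMAIP1 lie to the left; BAD lies slightly to the left, and to the right after median-ratio scaling.

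BCL2L1 encodes BCL-XL, which holds BAX and BAK1 in check at the mitochondrial membrane. Its mean was 20.0 TPM in si-NC against 49.4 TPM in si-FTO, a 2.47-fold higher level and a log2 ratio of 1.26. Relative to the median of all genes the log2 ratio was 1.46, and 91.2% of genes compared had a lower ratio. BCL2L1 went from place 7 to place 3 among the members ordered by level.

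MCL1, a short-lived anti-apoptotic protein that binds BAK1 and PMAIP1, was the most abundant anti-apoptotic transcript in both groups. It had 95.9 TPM in si-NC against 159 TPM in si-FTO, with a log2 ratio of 0.73, which is within the fold. BCL2, the founding member, was the least abundant of all 10 in both groups, at 2.51 TPM in si-NC against 3.12 TPM in si-FTO. Its log2 ratio was 0.23, and 0.43 relative to the median of all genes.

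The effectors were lower in si-FTO. BAX, which moves from the cytosol to mitochondria to form pores, was the most abundant member in si-NC at 175 TPM and had 75.8 TPM in si-FTO. This is 2.31-fold lower, with a log2 ratio of -1.20, or -0.99 relative to the median of all genes. BAK1, the effector that resides in the outer membrane, had 69.9 TPM in si-NC against 41.5 TPM in si-FTO. Its log2 ratio of -0.74 did not pass the fold.

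The 5 BH3-only members did not share a direction. PMAIP1 encodes NOXA, a BH3-only protein that neutralizes MCL1, and stood at 49.5 TPM in si-NC against 9.26 TPM in si-FTO. This 5.35-fold lower level, with a log2 ratio of -2.30, was the largest log2 ratio in size among the 10 members, and 4.62% of genes compared had a lower ratio. In the order of levels PMAIP1 went from place 4 to place 9.

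BBC3, which encodes PUMA, a BH3-only protein that binds all the anti-apoptotic members, had 11.6 TPM in si-NC against 12.7 TPM in si-FTO, with a log2 ratio of 0.12. BAD, which binds BCL2 and BCL-XL and is controlled by phosphorylation, had 32.6 and 29.3 TPM, with a log2 ratio of -0.15. Relative to the median of all genes BAD was at 0.050 and BBC3 at 0.33. BAD thus lay close to the median, while 65.7% of genes compared had a lower ratio than BBC3.

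BID, which links death receptors to mitochondria once caspase-8 has cleaved it, had 33.9 TPM in si-NC against 47.8 TPM in si-FTO, with a log2 ratio of 0.48. BCL2L11, which encodes the activator BIM, had 14.0 TPM in si-NC against 20.1 TPM in si-FTO, with a log2 ratio of 0.49. Neither passed the fold, and both were higher while PMAIP1 was lower.

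**Figure D3:**
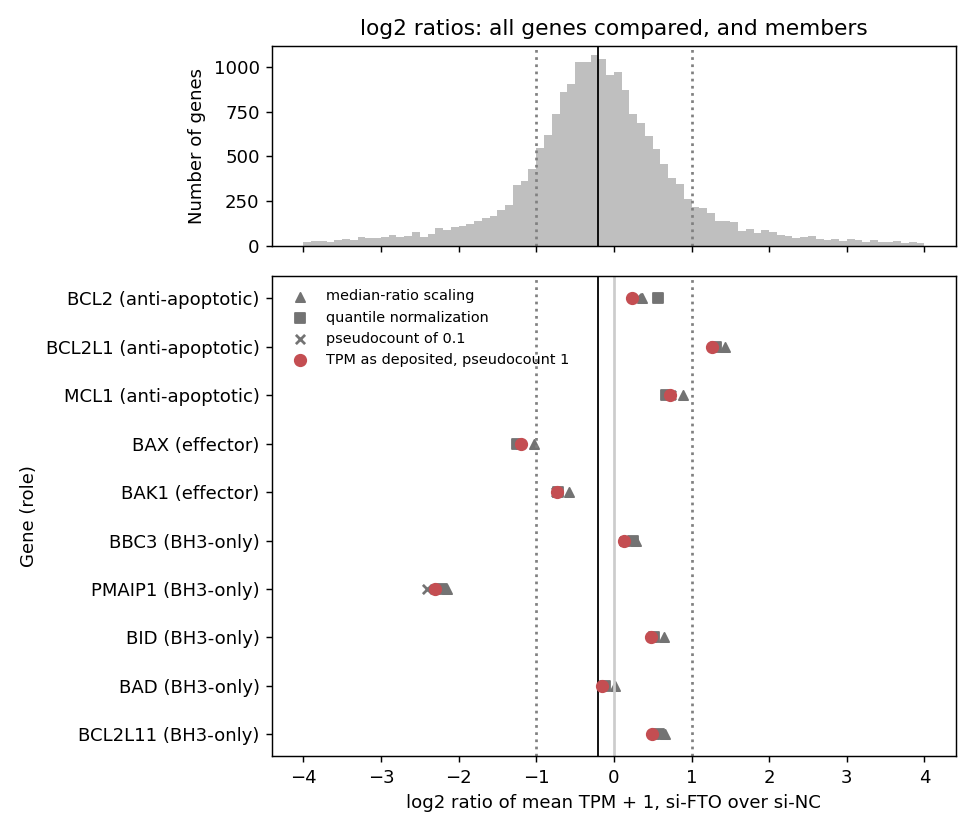
Top, number of genes by log2 ratio of mean TPM plus 1, si-FTO over si-NC, with 470 genes beyond 4 in size left off; bottom, the 10 members, as deposited (red) and under other scalings or pseudocount (grey). Dotted lines mark 1 and -1 and the black line the median of all genes; BCL2L1 lies right of the dotted lines, BAX and PMAIP1 left, and BAD crosses 0 with median-ratio scaling.

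Since TPM is a level per length, the members can be summed. The anti-apoptotic members summed to 118 TPM in si-NC against 212 TPM in si-FTO, 1.79-fold higher in si-FTO. The pro-apoptotic members summed to 387 TPM in si-NC against 236 TPM in si-FTO, 1.64-fold lower. The ratio of the anti-apoptotic to the pro-apoptotic sum was therefore 0.306 in si-NC against 0.895 in si-FTO, 2.92 times as large.

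The pro-apoptotic side was not lower throughout. The effectors BAX and BAK1 summed to 245 TPM in si-NC against 117 TPM in si-FTO, and the BH3-only members to 142 and 119 TPM. The difference was -99.2 TPM for BAX and -40.2 TPM for PMAIP1, out of -150.2 TPM for all 7 genes. Without BAX and PMAIP1, an alternative chosen after seeing the data, the log2 ratio of the pro-apoptotic sum was -0.099 in place of -0.71. MCL1 made up 19.0% of the summed member TPM in si-NC and 35.5% in si-FTO, while BAX made up 34.7% and 16.9%.

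**Figure D4:**
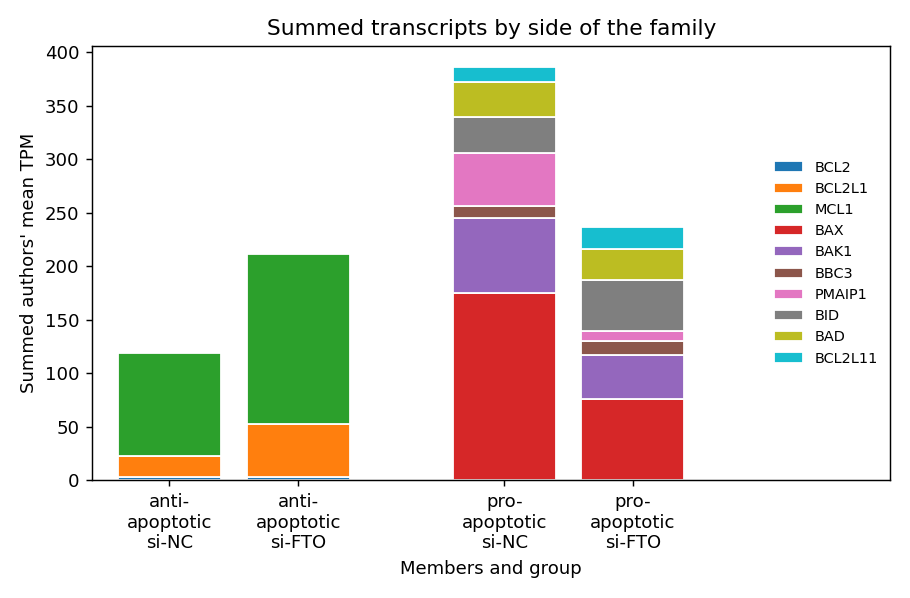
Summed authors' mean TPM of anti-apoptotic and pro-apoptotic members in si-NC and si-FTO, with each gene as a segment. The anti-apoptotic bars reach 118 and 212 TPM and the pro-apoptotic bars 387 and 236 TPM, with BAX the largest segment of the pro-apoptotic bars.

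Ratios between binding partners were taken within each group, with pairs chosen after the values were seen. MCL1 over PMAIP1 was 1.94 in si-NC against 17.2 in si-FTO. BCL2L1 over BAX was 0.114 in si-NC against 0.651 in si-FTO, and MCL1 over BAK1 was 1.37 and 3.84. BCL2L1 over BAK1 was 0.286 and 1.19, BCL2L1 over BAD 0.613 and 1.69, and BCL2 over BAX 0.014 and 0.041. The smallest of these 7 chosen differences was that of BCL2L1 over BCL2L11, at 1.43 and 2.46, which is 1.72-fold. Pairs of MCL1 or BCL2 with BID or BCL2L11 were left out, and not every pair goes this way. BCL2 was 1.24-fold higher in si-FTO, less than BID at 1.41-fold and BCL2L11 at 1.43-fold. BCL2 over either was therefore lower in si-FTO. All such values are ratios of transcripts, which a single scaling factor per group leaves as they are, and no protein level was measured here.

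The position of the members was compared with that of their neighbours. BCL2 and PMAIP1 lie on chromosome 18, where the median log2 ratio of 306 genes compared was -0.52, the second lowest of 22 autosomes, whose medians ran from -0.56 to 0.11. On chromosome 18, 32.7% of genes compared were lower past the fold, beside 17.0% of all genes compared. Of the 50 genes nearest to PMAIP1, 23 were lower past the fold and their median was -0.90; around BCL2 24 of 50 were lower, with a median of -0.90. These sets share 42 of their 50 genes, so they are largely 1 observation. PMAIP1 was lower than this surrounding median and BCL2 was higher. Around BAX on chromosome 19 the median of the 50 nearest genes was -0.70, with 14 lower past the fold, and around BCL2L1 on chromosome 20 it was 0.34. The other members had ratios of the opposite sign to the median of their neighbours. The median of all genes compared was itself -0.20, and several of these neighbour medians lay near it. BAK1 and BAD were below 0 beside medians of 0.096 and 0.39, though BAD was above 0 with median-ratio scaling. MCL1, BCL2L11 and BBC3 were above 0 beside medians of -0.30, -0.29 and -0.35. BID was above 0 beside a median of -0.26, on chromosome 22, the autosome with the lowest median. The part of these regional differences in the members' values was not tested.

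Some members share their span with another gene, and whether the authors counted reads by strand is not given in the sources used here. BCL2L11 overlaps MIR4435-2HG, a long noncoding RNA on the opposite strand with 6.93 TPM in si-NC against 121 TPM in si-FTO. MCL1 overlaps ADAMTSL4 on the opposite strand, at 3.37 and 28.2 TPM, and BCL2L1 overlaps the noncoding ABALON, at 1.45 and 5.93 TPM. BAD overlaps GPR137, at 34.4 and 40.8 TPM. Overlap was taken over whole gene spans, introns included, and overlap of exons was not checked. The values of these 4 members may be uncertain to that extent, which was not tested. No annotated gene overlaps BAX or PMAIP1.

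The promoter of BAX is shown because BAX was the most abundant member of si-NC and passed the fold. RefSeq promoter sequences on GRCh38.p14, from 250 bases before to 50 after a start, were matched for 9 of 10 members, with 15 sequences. The motif CACGTG, which reads the same on both strands and was chosen after the BAX sequence was seen, was present in promoters of 3 of the 9 members, BAX, BBC3 and BID, and of 2396 of 27305 genes, or 8.77%. By sequence it was in 4 of 15, of which 2 are overlapping BID sequences with the same copy, and in 2548 of 35116, or 7.26%. BAX held 4 copies, and 5 promoters of the whole table, that of BAX included, held 4 or more. The 250 bases before the BAX start, chr19:48954625-48954874 of GRCh38.p14 on the plus strand, are given with CACGTG in capitals. A match describes letters and not a bound site.
BAX promoter: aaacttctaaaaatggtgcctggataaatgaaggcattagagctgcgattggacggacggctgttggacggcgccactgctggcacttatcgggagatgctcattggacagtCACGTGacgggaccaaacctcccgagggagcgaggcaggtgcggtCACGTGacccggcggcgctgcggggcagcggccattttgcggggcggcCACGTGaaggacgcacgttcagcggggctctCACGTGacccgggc

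Genes of the family outside the 10 members were mixed. BCL2L2, an anti-apoptotic gene that encodes BCL-W, had 16.0 TPM in si-NC against 17.3 TPM in si-FTO, and shares its span with the readthrough gene BCL2L2-PABPN1. BCL2A1 was listed at 0 in both groups, and BCL2L10 had 0.035 TPM in si-NC and was listed at 0 in si-FTO. Of the other pro-apoptotic genes, 2 of 4 were higher past the fold and 1 was lower, which was 0 with quantile normalization or a minimum of 5 TPM and 2 with a pseudocount of 0.1. BOK, a relative of BAX, had 0.801 TPM in si-NC against 12.1 TPM in si-FTO, with a log2 ratio of 2.87. BMF, a BH3-only gene, had 5.31 and 17.4 TPM, with a log2 ratio of 1.55. HRK, also BH3-only, had 4.74 TPM in si-NC against 1.34 TPM in si-FTO, with a log2 ratio of -1.29, and BIK had 3.34 and 1.502 TPM. Adding both lists to the sums left the anti-apoptotic over pro-apoptotic ratio at 0.335 in si-NC against 0.852 in si-FTO.

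Of 7 other BCL2-related genes 4 were compared, and 1 was lower past the fold. This was BCL2L12, also the most abundant of the list by the mean of both groups, at 116 TPM in si-NC against 30.0 TPM in si-FTO, with a log2 ratio of -1.91. It lies on chromosome 19 as BAX does, and the median of its 50 nearest genes was -0.77, with 13 lower past the fold. BCL2L12 shares its span with IRF3 on the opposite strand, at 46.9 TPM in si-NC against 28.4 TPM in si-FTO.

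Of 9 genes of the apoptosome and the caspases, 1 was higher past the fold and 0 were lower, with a median log2 ratio of -0.26. With median-ratio scaling 2 were higher. CASP9, the initiator caspase of the apoptosome, had 20.8 TPM in si-NC against 44.1 TPM in si-FTO, with a log2 ratio of 1.05. CYCS, which encodes cytochrome c, had 105 and 87.4 TPM. None of the 4 other released factors passed the fold, and the most abundant, AIFM1, had 184 TPM in si-NC against 98.3 TPM in si-FTO.

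Of 4 outer membrane channel genes, 1 was lower past the fold, VDAC3, at 356 TPM in si-NC against 170.1 TPM in si-FTO; with median-ratio scaling 0 were. VDAC1, the most abundant, had 479 and 372 TPM. Among 7 inhibitor of apoptosis genes 1 was higher past the fold, BIRC3, at 0.218 TPM in si-NC against 2.56 TPM in si-FTO. This count was 0 with a minimum of 5 TPM, and 2 with a pseudocount of 0.1, median-ratio scaling or quantile normalization. The most abundant gene was BIRC5, at 101 and 74.5 TPM. The median log2 ratio was -0.21 for the channels and -0.04 for the inhibitors of apoptosis.

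In the death receptor arm, which reaches the BCL2 family through BID, 4 of 10 genes were higher past the fold and 1 was lower, with a median of 0.46. TNFRSF10A, a receptor for TRAIL, had 0.074 TPM in si-NC against 16.5 TPM in si-FTO, with a log2 ratio of 4.02. TNFRSF1A, the main TNF receptor and the most abundant of the list by the mean of both groups, had 34.0 and 127 TPM, with a log2 ratio of 1.87. TNFRSF10C, a decoy receptor, had 4.95 TPM in si-NC against 1.24 TPM in si-FTO, with a log2 ratio of -1.41, and is left out by a minimum of 5 TPM. The other genes higher past the fold, named after their values were seen, were FAS and CFLAR.

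**Figure D5:**
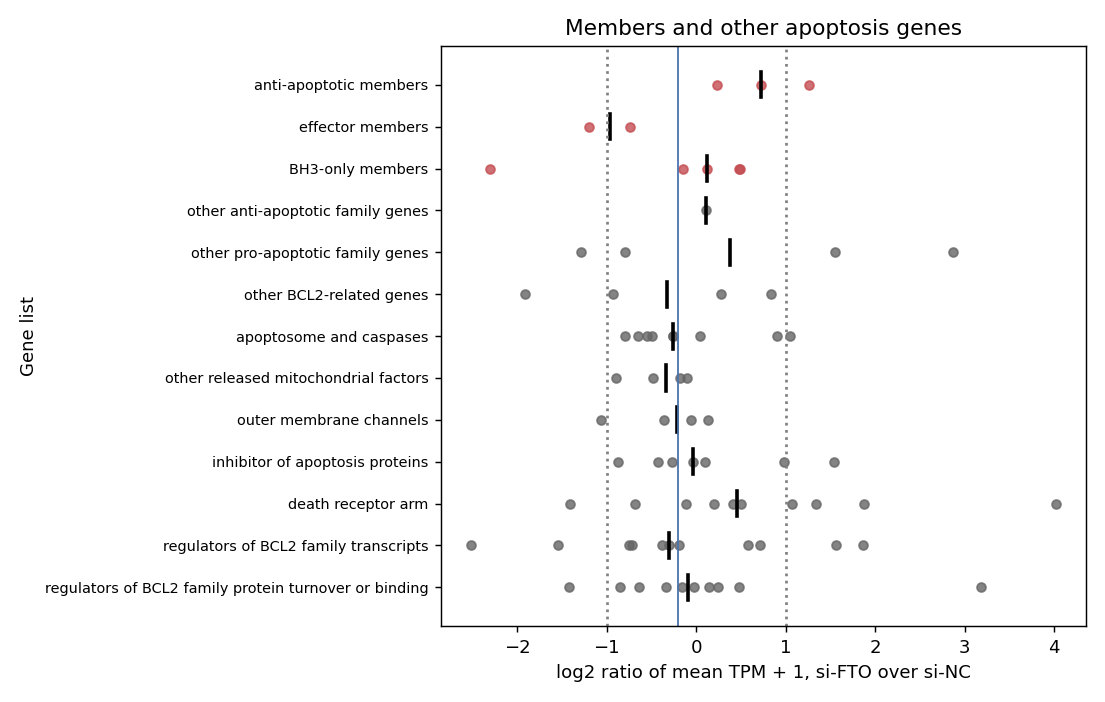
log2 ratios of mean TPM plus 1, si-FTO over si-NC, for the members (red) and other apoptosis lists (grey), 1 point per gene compared. Black bars mark list medians, the blue line the median of all genes and dotted lines 1 and -1; points of most lists lie on both sides of the blue line.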

How the data were processed

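Total RNA of 3 si-NC and 3 si-FTO libraries of AGS cells was sequenced. The deposited values are TPM, averaged by the authors within each group. The methods name Bowtie and RSEM on hg19, whereas the submitters' processing notes name HISAT2 and hg19; versions and annotation are not given in the sources used here. The deposited table also holds a log2 fold change, a p-value and a q-value from the authors' comparison, which were not used, as was a table of genes chosen by it.

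A value of 0.0001 was read as 0. Log2 ratios were taken with a pseudocount of 1, over genes with at least 0.5 TPM in at least 1 group. Symbols matched 55726 of 58174 identifiers. TPM keeps no depth, and group means allow no test. Members and lists were chosen with earlier results of these data known. All members, FTO and genes of the other anti-apoptotic and pro-apoptotic lists are named; of each other list, the 2 largest log2 ratios in each direction past the fold with at least 1 TPM in 1 group, and the most abundant gene. A gene covered by this rule is not reported here. Positions and coding sequences come from the GENCODE annotation on GRCh37, promoters from RefSeq on GRCh38.p14. Alternatives were other pseudocounts, filters, scalings, thresholds and summed genes. Calculations used Python 3.11.15, numpy 2.4.6, pandas 2.3.3 and matplotlib 3.10.9, and were tested on simulated data.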

Additional observations from a re-analysis of the deposited data

How the results depend on the processing

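No paired analysis was possible because the table gives group means, and leaving out libraries was not run for the same reason. Without replicates, a log2 value was counted as moved when it shifted by over 1.5-fold or changed sign, for members also when it crossed the fold, and a count when it differed by over 1.5 times. Of 30 values of the members' log2 ratios under the 3 alternatives that could move them, 29 did not. The exception was BAD, at 0.013 with median-ratio scaling, against -0.15 as deposited. BCL2L1 ran from 1.26 to 1.43, BAX from -1.24 to -1.03 and PMAIP1 from -2.41 to -2.14, so BAX came closest to the fold. Median-ratio scaling moved the median of all genes by 0.14 and quantile normalization by 0.17.

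With a minimum of 5 TPM, 2254 of 12967 genes (17.4%) in place of 3492 of 20493 (17.0%) were lower past the fold, and 4 in place of 7 genes of the pathway lists. With a 1.5-fold threshold, 2 members in place of 1 were higher and 3 in place of 2 lower, beside 3855 genes (18.8%) in place of 2340 higher and 6397 (31.2%) lower, and 18 genes of the pathway lists were lower; a looser threshold counts more genes by construction. Without BAX and PMAIP1, chosen after seeing the data, the log2 ratio of the pro-apoptotic sum was -0.099 in place of -0.71. That of the anti-apoptotic over pro-apoptotic ratio was 0.94 in place of 1.55, since the pro-apoptotic genes that differed most were left out. The log2 ratio of the anti-apoptotic sum, 0.84 as deposited, was 1.01 with median-ratio scaling and 1.22 without the most abundant gene of each side. It was 0.82 with quantile normalization and 0.77 with the other family genes added. That of the pro-apoptotic sum, -0.71 as deposited, was -0.40 without the most abundant gene of each side. It was -0.54 with median-ratio scaling, -0.58 with the other family genes added and -0.70 with quantile normalization. Of 100 counts of single pathway lists under the 5 alternatives that could move them, 22 moved. Having no filter, or taking 0.0001 as it stands, left these counts as they were by construction. No member past the fold and no sum changed sign under these alternatives, while BAD, within the fold, did. For the other values that moved, the cause was not tested.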

Other observations

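Regulators of the family were also listed. Of 11 regulators of BCL2 family transcripts, 2 were higher and 2 lower past the fold, with a median log2 ratio of -0.31. STAT3, a transcription factor known to induce BCL2L1 and MCL1, had 31.8 TPM in si-NC against 118 TPM in si-FTO, with a log2 ratio of 1.86. MYC had 20.7 and 63.2 TPM, with a log2 ratio of 1.57. TP73, a transcription factor, had 6.45 TPM in si-NC against 0.297 TPM in si-FTO, with a log2 ratio of -2.52, and FOXO3, a known activator of BCL2L11 and BBC3, had 26.9 and 8.54 TPM, with a log2 ratio of -1.55. ATF4, the stress factor that is the most abundant of the list, had 945 and 575 TPM.

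Of 10 regulators of protein turnover or binding, 1 was higher and 1 lower past the fold. BAG1, a co-chaperone that binds BCL2, had 24.5 TPM in si-NC against 231 TPM in si-FTO, with a log2 ratio of 3.18. TRIM17, a ubiquitin ligase for MCL1, had 3.11 and 0.541 TPM, with a log2 ratio of -1.42, and is left out by a minimum of 5 TPM. TPT1, the most abundant of the list, had 369 TPM in si-NC against 436 TPM in si-FTO.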
